A study of Mus musculus with 6 samples.

Results

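The granzyme and mast cell protease cluster is a row of neighbouring serine protease genes on mouse chromosome 14, taken here as the 8 genes Mcpt8, Ctsg, Gzme, Gzmd, Gzmg, Gzmf, Gzmc and Gzmb. Its probe sets were those whose single gene symbol in the platform annotation is one of these names, with no filter on signal. This gave 9 probe sets (2 for Gzmd and 1 for each other gene) among 45037 probe sets outside the manufacturer's controls, and 8 of 18193 genes that have a probe set of 1 symbol. The genes were chosen by position and with their signals in the treated against control comparison in view, so their own changes are given as a description and carry no test. In the reference order of chromosome 14, the span from Mcpt8 to Gzmb holds 9 protein-coding genes, and Gzmn is the single one among them that is not a member.

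The cells were primary dermal fibroblasts of B6 mice of mixed sex, aged 0 to 2 days, grown from dermal explants and used at passage 4. In 3 treated cultures 5-aza-2'-deoxycytidine, a cytidine analogue that traps DNA methyltransferases after it is built into DNA, was given at 5 µM for 96 hours and renewed every 24 hours. These cultures were then kept in normal medium for 24 hours. The 3 control cultures were untreated, and no vehicle is named for them, so drug, vehicle and handling cannot be told apart. Each replicate was explanted separately and measured on 1 Affymetrix expression array. Whether a treated and a control culture of the same number share an explant is not stated. The comparison asks which transcripts differ after a drug that lowers DNA methylation. The total RNA came from whole cultures, in which a change in the number of cells of a type and a change in RNA per cell cannot be told apart.

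The members encode proteases stored in the secretory granules of blood-derived cells. Granzymes are released by cytotoxic T cells and natural killer (NK) cells into target cells through perforin pores, and granzyme B cleaves after aspartate and triggers apoptosis. Gzmc to Gzmg are rodent genes that arose by duplication and are known from activated cytotoxic lymphocytes and from the granulated NK cells of the pregnant uterus. Ctsg encodes cathepsin G of neutrophil and mast cell granules, and Mcpt8 encodes a protease used as a marker of mouse basophils. All 8 are thus known from cells of the blood lineage rather than from fibroblasts.

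The sequences upstream of the members are shown first, because the drug lowers cytosine methylation, which in mammals lies mostly at CpG dinucleotides, and the members differ in how many CpG they carry. All 8 members matched a window of 300 bases in RefSeq's GRCm38.p6 annotation, with 250 bases before the annotated start and 50 bases from it on. The windows of the 3 genes that were higher in treated cells are printed 5′ to 3′ on the coding strand, in lower case with CpG dinucleotides in capitals. The Mcpt8 window is chr14:56085148-56085447, that of Gzme is chr14:56120576-56120875 and that of Gzmd is chr14:56132544-56132843, all on the minus strand.
Mcpt8: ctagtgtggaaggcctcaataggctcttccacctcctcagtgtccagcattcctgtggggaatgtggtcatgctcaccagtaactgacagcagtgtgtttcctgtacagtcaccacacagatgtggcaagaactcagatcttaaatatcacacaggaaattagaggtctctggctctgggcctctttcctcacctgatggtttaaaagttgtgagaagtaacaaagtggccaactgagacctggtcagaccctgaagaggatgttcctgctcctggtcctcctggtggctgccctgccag
Gzme: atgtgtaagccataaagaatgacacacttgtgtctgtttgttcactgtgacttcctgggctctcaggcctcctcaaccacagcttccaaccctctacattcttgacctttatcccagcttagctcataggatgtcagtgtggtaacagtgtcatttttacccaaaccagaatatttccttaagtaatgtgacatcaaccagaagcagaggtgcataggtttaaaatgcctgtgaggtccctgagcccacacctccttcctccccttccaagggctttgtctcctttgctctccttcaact
Gzmd: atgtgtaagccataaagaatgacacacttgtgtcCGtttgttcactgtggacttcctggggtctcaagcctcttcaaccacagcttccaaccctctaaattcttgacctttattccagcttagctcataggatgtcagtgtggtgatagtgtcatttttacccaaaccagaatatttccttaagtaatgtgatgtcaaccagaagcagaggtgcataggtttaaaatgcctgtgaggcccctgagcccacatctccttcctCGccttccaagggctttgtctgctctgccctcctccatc
The Mcpt8 and Gzme windows hold 0 CpG, as do 1783 of 32851 windows (5.43%). The Gzmd window holds 2 CpG, and 23.3% of windows hold no more than that. The median over all windows was 7 CpG. Gzmg, Gzmc and Gzmb also hold 2 CpG each, Gzmf holds 3 and Ctsg holds 8. The members that were higher in treated cells thus have few CpG near the start, and so do most of the members that were not.

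Gzme and Gzmd are near copies at their start, with 94.0% identity over the 299 aligned bases of their windows. Pairs among Gzmc, Gzmd, Gzme, Gzmf and Gzmg aligned at 86.1% to 94.0% identity. Pairs that include Mcpt8, Ctsg or Gzmb aligned over shorter stretches, at 59.1% to 69.9%. A stretch of 60 bases can be lined up without gaps in the 5 related granzymes, and it is printed to show where they differ. Capitals mark the 8 bases at the place where Gzmg, Gzmf and Gzmc read TGACGTCA, the cAMP response element that CREB and ATF factors are known to bind.
Gzme: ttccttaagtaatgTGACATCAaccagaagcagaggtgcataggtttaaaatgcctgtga
Gzmd: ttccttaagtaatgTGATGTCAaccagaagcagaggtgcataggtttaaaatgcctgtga
Gzmg: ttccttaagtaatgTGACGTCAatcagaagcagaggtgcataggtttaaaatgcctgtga
Gzmf: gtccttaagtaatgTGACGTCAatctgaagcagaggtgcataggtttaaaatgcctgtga
Gzmc: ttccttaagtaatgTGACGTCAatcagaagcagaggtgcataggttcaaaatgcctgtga
Against Gzmg, and counting from 1 at the 5′ end of the capitals, Gzmd carries C4T and Gzme carries G5A. Each substitution removes both the 8-base match and the CpG inside it. The 2 genes of this subfamily that were higher in treated cells are the 2 whose stretch lacks this CpG. Just after the capitals, the same 2 genes read ac where Gzmg, Gzmf and Gzmc read at. The CpG is thus not the only difference in the stretch that splits the 5 genes in this way. Gzme is read only by a probe set whose probes also match other transcripts, so its signal is not fully separated from that of Gzmd. This is a description of 5 related sequences, and the motif was picked after the sequences had been seen.

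Other motifs were searched in the same windows on both strands. TGACGTCA was found in 3 members (Gzmg, Gzmf and Gzmc) and in 1.79% of all windows. AACCACA, a core that RUNX factors are known to bind, was found in 6 members, Gzmb to Gzmg, and in 5.27% of all windows. The letters TTTAAA, which resemble the core promoter box of many regulated genes, were found in Mcpt8, Gzme, Gzmd, Gzmg and Gzmf and in 13.2% of all windows. TGANTCA, which AP-1 factors are known to bind, was found in Gzmb alone and in 7.81% of all windows. None of these motifs overlaps another in its letters, and a match is no evidence of binding.

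**Figure D1:**
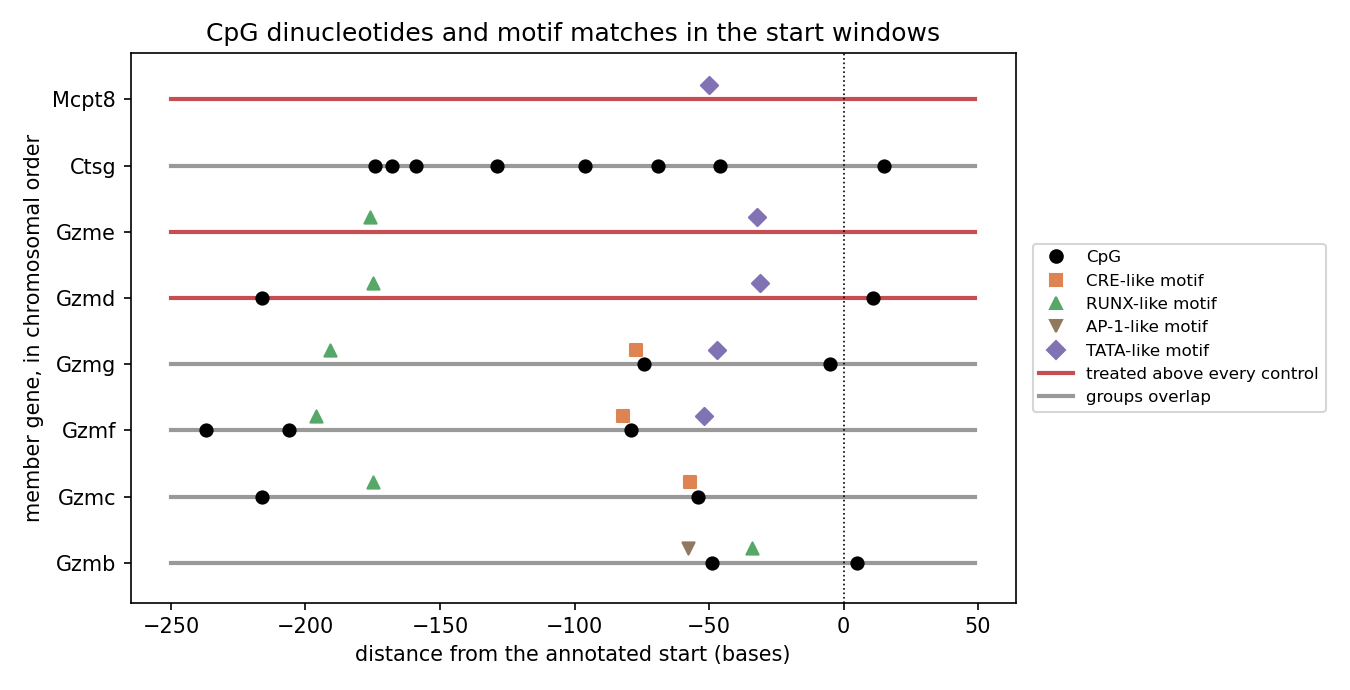
Positions of CpG dinucleotides and motif matches in the 300-base start windows of the 8 members, with the distance from the annotated start in bases on the x axis and the genes in chromosomal order on the y axis. Red lines are the 3 genes whose treated arrays were all above every control, and among Gzmc to Gzmg the CRE-like mark (TGACGTCA) and the CpG inside it are missing from Gzme and Gzmd.

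Deposited signals had 2% trimmed means of 149.2 to 223.9 units per array, and each array was scaled to 193.2 units. Signals below are scaled signals unless stated otherwise. A log2 change is treated minus control on log2(signal + 9.66), which understates the change of dim probe sets, and its error is the moderated standard error (SE) with 3 cultures per group. No detection calls were used, so a low signal is not separated from background. As a scale, the array medians lay between 51.41 and 60.61 units.

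Mcpt8, Gzme and Gzmd had higher signals in every treated culture than in any control culture. The other 5 genes stayed dim and their groups overlapped. With a test across the whole array (limma, Benjamini-Hochberg adjusted p under 0.05), 4 of the 9 member probe sets were called higher and 0 lower (also 0 lower at an unadjusted p under 0.05), against 18.9% of all probe sets called in either direction, 9.07% called higher and 9.80% called lower. The same 4 had all treated arrays above all controls, which 16.8% of all probe sets had. Since the members were chosen with this comparison in view, nothing is read from these counts. The median change of the 9 probe sets was 0.41 on the log2 scale, beside 0.004 for all probe sets.

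Mcpt8, the basophil protease gene, is the first of the row. Its probe set 1449965_at read 45.2, 69.5 and 75.2 in the controls and 337.1, 249.7 and 395.1 in the treated cultures. The mean went from 63.3 ± 15.9 to 327.3 ± 73.2 (SD, n = 3 each). The log2 change was 2.21 ± 0.22 (SE), with a 95% interval of 1.71 to 2.71. On each control array Mcpt8 lay near the middle of all probe sets, between percentile 46.9 and 57.3, and on each treated array between 79.2 and 85.4.

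Gzme, a granzyme of activated cytotoxic lymphocytes, is read by 1450171_x_at. The suffix _x_at marks probes that also match other transcripts, so its signal may include that of a near copy. It read 52.5, 36.2 and 34.1 in the controls and 328.4, 229.9 and 250.8 in the treated cultures, with means of 40.9 ± 10.04 and 269.7 ± 51.9. The log2 change was 2.47 ± 0.21, with a 95% interval of 2.00 to 2.94. All 3 treated cultures were high, and the lowest of them stood well clear of the highest control.

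Gzmd, the neighbour and near copy of Gzme, was dim in the controls and not in the treated cultures. Probe set 1420343_at read 0.777, 10.1 and 0.814 in the controls and 163.6, 100.9 and 106.8 in the treated cultures. Its log2 change was 3.34 ± 0.37, with a 95% interval of 2.50 to 4.17. The other Gzmd probe set, 1420344_x_at, carries the same suffix as that of Gzme, so its signal may also include that of a near copy. It read 0.777, 17.4 and 9.47 in the controls and 141.4, 94.7 and 101.9 in the treated cultures, a log2 change of 2.78 ± 0.39. Both Gzmd probe sets went from the bottom of the control arrays, at or under percentile 25.1, to between percentile 60.8 and 72.7 on the treated arrays. A passage from below the 40th percentile on all controls to above the median on all treated arrays was seen in these 2 member probe sets and in 196 probe sets (0.435%) of the array.

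The exact size of the Gzmd change cannot be fixed, since its control signals are low and 3 of the 6 control readings lie below 1 unit. The deposited value of control 1 was 0.9 units at both Gzmd probe sets. A pseudocount of 0.01 instead of 0.05 of the trimmed mean gave a log2 change of 4.78 for 1420343_at, and one of 0.2 gave 1.92, beside 1.95 for Gzme and 1.84 for Mcpt8, so the order of the members turns with this choice. The treated level did not depend on this choice. The 3 treated cultures lay closer together before scaling, with deposited signals of 126.3, 108.5 and 115.8 units for 1420343_at and of 109.2, 101.9 and 110.4 units for 1420344_x_at.

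**Figure D2:**
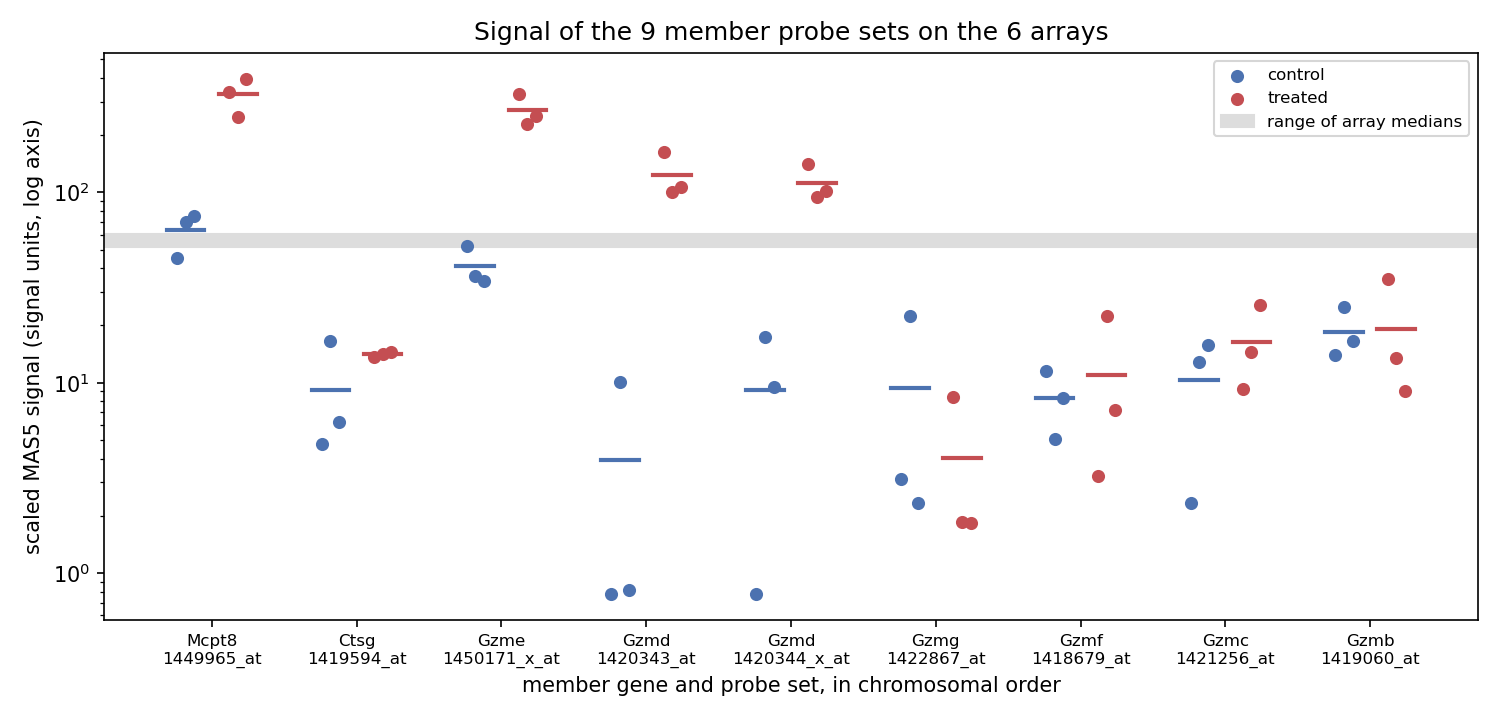
Scaled signal of the 9 member probe sets (log y axis, signal units) in the 3 control (blue) and 3 treated (red) cultures, in chromosomal order, with bars at the group means and a grey band over the range of array medians, 51.41 to 60.61. Points of Mcpt8, Gzme and both Gzmd probe sets separate by group, with treated means of 112.7 to 327.3, while the other 5 probe sets stay below the band in both groups.

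Gzmb, the main apoptosis-inducing granzyme of cytotoxic lymphocytes and the last gene of the row, read 14.1, 25.0 and 16.6 in the controls and 35.2, 13.5 and 9.04 in the treated cultures. Treated culture 1 was the highest and treated culture 3 the lowest of the 6. The log2 change was -0.05 ± 0.38, with a 95% interval of -0.91 to 0.81. This interval lies below those of Mcpt8, Gzme and Gzmd. At this precision a change of Gzmb within the interval was not detectable.

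Gzmc, Gzmf and Gzmg, the closest relatives of Gzmd and Gzme, were dim in both groups. Gzmc read 2.33, 12.8 and 15.9 in the controls and 9.32, 14.5 and 25.5 in the treated cultures, a log2 change of 0.41 ± 0.36 (95% interval -0.42 to 1.24). Gzmf read 11.5, 5.07 and 8.35 in the controls and 3.24, 22.5 and 7.20 in the treated cultures, a change of 0.11 ± 0.34 (-0.67 to 0.89). The treated cultures of Gzmf lay on either side of the controls, and those of Gzmc overlapped them, with the highest of the 6 a treated culture and the lowest a control. Gzmg read 3.11, 22.6 and 2.34 in the controls and 8.42, 1.86 and 1.85 in the treated cultures, a change of -0.35 ± 0.38 (-1.21 to 0.52). The spread within each group was as large as the difference between the groups in all 3 genes.

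Ctsg, which lies between Mcpt8 and Gzme, read 4.75, 16.6 and 6.21 in the controls and 13.7, 14.2 and 14.6 in the treated cultures. Control 2 was the highest of the 6. The log2 change was 0.39 ± 0.28, with a 95% interval of -0.25 to 1.03. The row of higher genes is thus interrupted at Ctsg and ends after Gzmd. Over all 9 probe sets, 7 lay below the 40th percentile on every control array, a state shared by 14653 probe sets, of which 617 (4.21%) were called higher.

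Among the treated cultures, the sum over the members was 887.9 in culture 1, 643.9 in culture 2 and 808.3 in culture 3. Each gene entered this sum as the mean of its probe sets. Control sums were 134.2 to 201.6. After scaling, culture 2 had the lowest treated signal of Mcpt8, Gzme and both Gzmd probe sets. The order turns without scaling: the deposited signal of Mcpt8 was lowest in treated culture 1 (260.3, beside 268.6 in culture 2), and that of Gzme was highest in treated culture 3 (271.8, beside 253.6 in culture 1). The 4 probe sets that pass the signal filter used elsewhere (above the array median on at least 3 arrays) are the same 4 that were called. They pass through their treated arrays, so no count over them is used.

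The serine protease genes beside the members did not pass the test. Of 9 listed genes, 6 had a probe set of 1 symbol, and 0 of the 6 probe sets was called by limma, with a median change of 0.58 and 2 probe sets at an unadjusted p under 0.05. Over the whole array, 18.9% of probe sets were called in either direction. Cma1, mast cell chymase, went from 73.8 ± 42.05 to 152.2 ± 21.4, a log2 difference of 1.12 ± 0.40 with an adjusted p of 0.0953. It was called only with the filter on dim probe sets (adjusted p = 0.0465). Mcpt1, a protease of mucosal mast cells, differed by 0.92 ± 0.40 (adjusted p = 0.166) and was called only without treated replicate 1 (adjusted p = 0.0258). The pseudogene Mcpt-ps1 differed by 0.70 ± 0.31 (adjusted p = 0.172). All treated arrays of Cma1 and of Mcpt-ps1 were above all controls, which 16.8% of all probe sets had. Those of Mcpt4 (-0.56, adjusted p = 0.2035) were below all controls, which 17.3% of all probe sets had. Gzmn, inside the span, read 9.77 in the controls and 10.9 in the treated cultures on average (0.16 on the log2 scale, adjusted p = 0.818).

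The 10 nearest genes with a probe set of 1 symbol on each side of the members (20 genes, 39 probe sets, Cma1 and 4 Mcpt genes among them) had 6 genes called, 5 lower and 1 higher, with a median change of -0.20. By probe set, 7 of the 39 were called lower and 1 higher. Over the whole array, 9.80% were called lower and 9.07% higher (18.9% in either direction). Nfatc4, a calcineurin-dependent transcription factor, was lower by both of its called probe sets, with log2 changes of -2.32 ± 0.39 (adjusted p = 0.00322) and -1.30 ± 0.15 (adjusted p = 0.000364). Its other 2 probe sets were not called (-0.38 and 0.16). Nynrin fell by 1.69 (adjusted p = 0.00443) and Parp4, a poly(ADP-ribose) polymerase of vault particles, by 1.44 (adjusted p = 0.00842). The brighter Parp4 probe set was not called (-0.41, adjusted p = 0.248). Zmym2 was lower at both probe sets (-0.90 and -0.34), the first of them not without control replicate 1 (adjusted p = 0.0523) or control replicate 3 (0.0583). Khnyn (-0.91, adjusted p = 0.0382) was not called without any 1 array other than treated replicate 2, with adjusted p up to 0.129. The remaining Khnyn probe sets were not called (-0.57 and -0.35). Rnf17, a gene known from the testis, was called at 1 dim probe set only (0.99, adjusted p = 0.0306). This call was lost without any 1 of the 6 arrays, with adjusted p up to 0.117. The remaining Rnf17 probe sets, not called, differed by 0.345, -0.199 and -0.134.

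**Figure D3:**
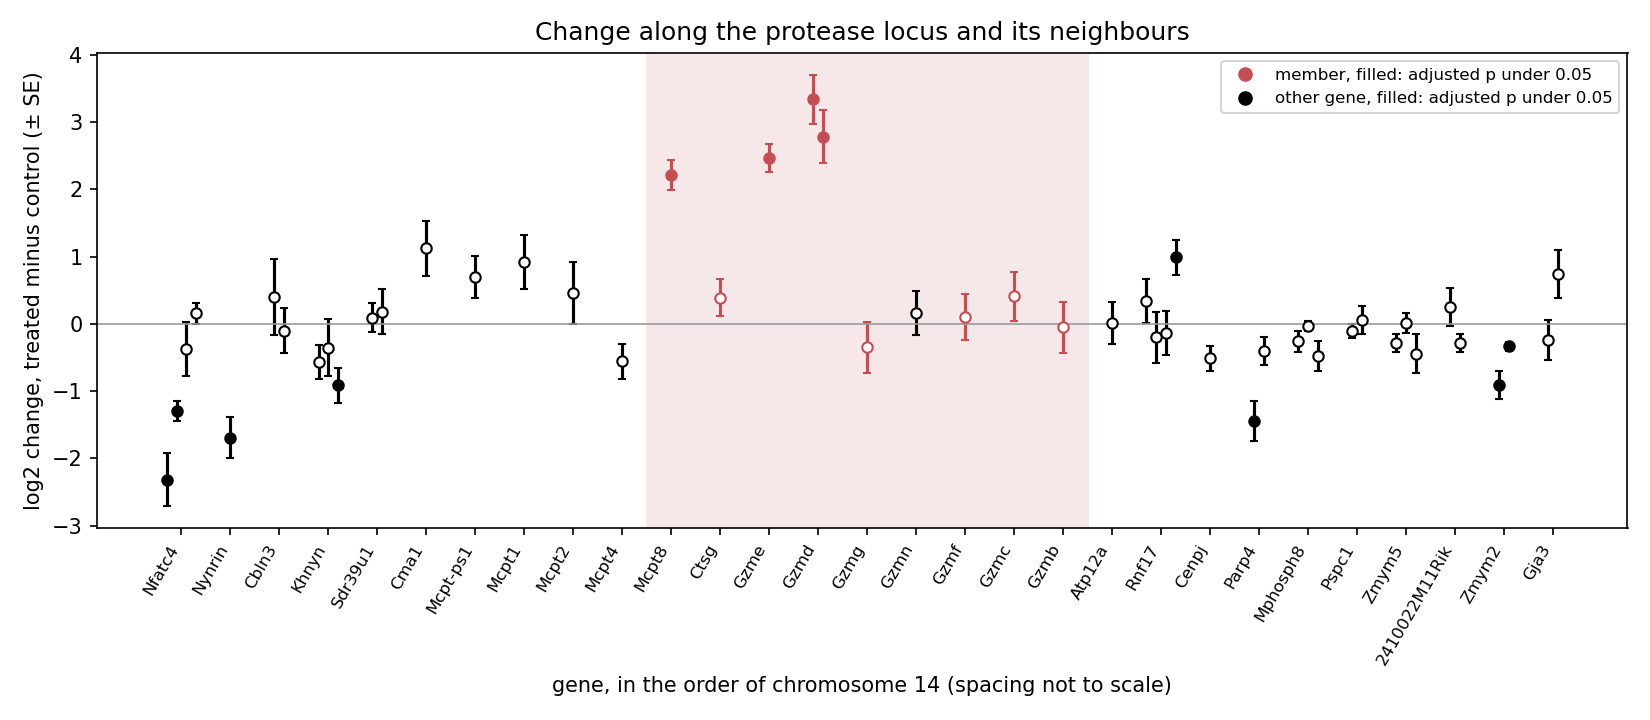
Log2 change (treated minus control, ± SE) of every probe set of the members (red, shaded) and of their neighbours (black) in the order of chromosome 14, with filled points where the adjusted p was under 0.05 and spacing not to scale. Filled red points at 2.21 to 3.34 stand over Mcpt8, Gzme and Gzmd, and most filled points outside the span lie below 0.

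Granule proteases encoded elsewhere in the genome gave 0 calls in 9 probe sets of 8 genes (limma, adjusted p under 0.05), with a median of 0.21 and 1 probe set at an unadjusted p under 0.05. Among all probe sets, 18.9% were called in either direction. Tpsab1, a mast cell tryptase, had the smallest p, with a log2 difference of 0.77 ± 0.26 (adjusted p = 0.0751). Dropping the intensity trend from the fit called it (adjusted p = 0.0232). Tpsb2, another tryptase, differed by 0.33 (adjusted p = 0.506). Gzma, granzyme A, went from 24.4 ± 13.4 to 35.9 ± 13.4 (0.47, adjusted p = 0.518).

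Inhibitors of granule proteases included some of the largest changes among the genes listed around the members. Of 14 probe sets of 11 genes, 6 rose and 1 fell, with a median of 0.34, beside 9.07% and 9.80% of all probe sets. Serpinb9b, a relative of the granzyme B inhibitor Serpinb9, rose from 96.6 ± 24.0 to 2430 ± 375.4, a log2 change of 4.53 ± 0.17 (adjusted p = 8.74e-07). Serpinb6b, an intracellular serpin, rose from 70.3 ± 7.80 to 784.8 ± 49.4 (3.31 ± 0.11, adjusted p = 5.2e-07). Slpi, a secreted inhibitor of neutrophil elastase and cathepsin G, rose by 3.32 ± 0.30 (adjusted p = 9.52e-05).

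Smaller rises in the same list were those of Serpinb1b (2.45), Serpinb9g (1.94) and, at 1 of its probe sets that was dim in both groups, Serpinb9c (1.18). Serpinb1a, an inhibitor of neutrophil serine proteases, fell by 1.15 (adjusted p = 0.00658). Serpinb9 itself read 605.2 in the controls and 615.8 in the treated cultures at its brighter probe set (0.03 ± 0.11, adjusted p = 0.888). These 7 calls held in every alternative in which the probe sets were tested. The rises were thus those of Slpi and of serpin genes other than Serpinb9, which did not pass the test.

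Genes that activate, pack and deliver granzymes had 26 probe sets of 12 genes, of which 8 rose and 3 fell, with a median of 0.21. The shares over all probe sets were 9.07% called higher and 9.80% called lower. Srgn, serglycin, the proteoglycan that binds granule proteases, rose from 36.0 ± 5.99 to 124.9 ± 9.72, a log2 change of 1.57 ± 0.21 (adjusted p = 0.00103), and its call held in all 13 alternatives. Igf2r, a mannose-6-phosphate receptor known to sort granzymes and to bind granzyme B, fell at both probe sets by 0.98 and 0.61. M6pr, the smaller mannose-6-phosphate receptor, rose by 0.49 and 0.47 at its 2 probe sets, and Lamp1, a lysosomal membrane protein, by 0.40. On unscaled signals the log2 differences of M6pr were 0.41 and 0.39 and that of Lamp1 was 0.33, but these were no longer called, which left 1 rise in the list. Calls of Calr (3 probe sets, 0.26 to 0.37) and Stxbp2 (1.24) were lost in 6 or more of 13 alternatives, fits without 1 control or 1 treated array among them, with adjusted p up to 0.718 and 0.128. The other Stxbp2 probe sets, neither of them called, differed by -0.90, with all treated arrays below all controls, and by 0.17.

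Ctsc, the protease that removes the activation peptide of granzymes and of cathepsin G, was lower on all treated than on all control arrays at its 3 probe sets, 1 of which was called. The bright probe set read 601.0 in the controls and 443.7 in the treated cultures (-0.44, adjusted p = 0.051) and was called lower in 4 of 13 alternatives, such as without treated replicate 3 (adjusted p = 0.0144). A dim one fell by 1.51 (adjusted p = 0.00645), and the third differed by -0.43 (adjusted p = 0.417). Prf1, perforin, through which granzymes enter target cells, differed by 0.46 (adjusted p = 0.135) and 0.33 (adjusted p = 0.532) at its 2 probe sets. Neither passed the test. Proteins that granzyme B cleaves gave 2 rises and 4 falls in 22 probe sets of 8 genes, with a median of -0.18. Of all probe sets, 9.07% were called higher and 9.80% lower. Bid, the BH3 protein that links granzyme B to mitochondria, rose by 0.79 and 1.43. Parp1, Dffa and Mcl1 fell by 0.43 to 0.50, but each of these calls was lost in 4 or more of 13 alternatives, fits without 1 array among them, and on unscaled signals 1 rise and 0 falls were left in the list. Another Mcl1 probe set differed the other way, by 0.35 (adjusted p = 0.077), and was called higher with the filter (adjusted p = 0.0466) and without control replicate 3 (adjusted p = 0.00764).

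Transcription factors known to drive granzyme genes had 38 probe sets of 17 genes, with 4 rises and 7 falls and a median of -0.28. These counts stand beside 9.07% of all probe sets called higher and 9.80% called lower. Fosl1, an AP-1 subunit, rose at both probe sets, by 2.02 ± 0.10 (adjusted p = 4.25e-06) and 3.06 ± 0.27 (adjusted p = 8.25e-05). Creb1, which binds the TGACGTCA element, fell at 2 of its probe sets by 1.21 and 1.06, and its other probe sets, at 0.17 to 0.38, did not pass. Stat3 fell by 0.93 and 0.85 and Cbfb, the partner of RUNX factors, by 0.88. Runx1 had probe sets called in opposite directions (1.22 and -0.83), and the rise was lost without any 1 array other than control replicate 2, with adjusted p up to 0.128. Stat5a fell by 0.55 and Eomes, a T-box factor of NK cells and T cells, rose by 1.20, and both calls were lost in 7 alternatives, most of them fits without 1 array, with adjusted p up to 0.214 and 0.0975. Tbx21, the other T-box factor, was below the 40th percentile on all 6 arrays.

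**Figure D4:**
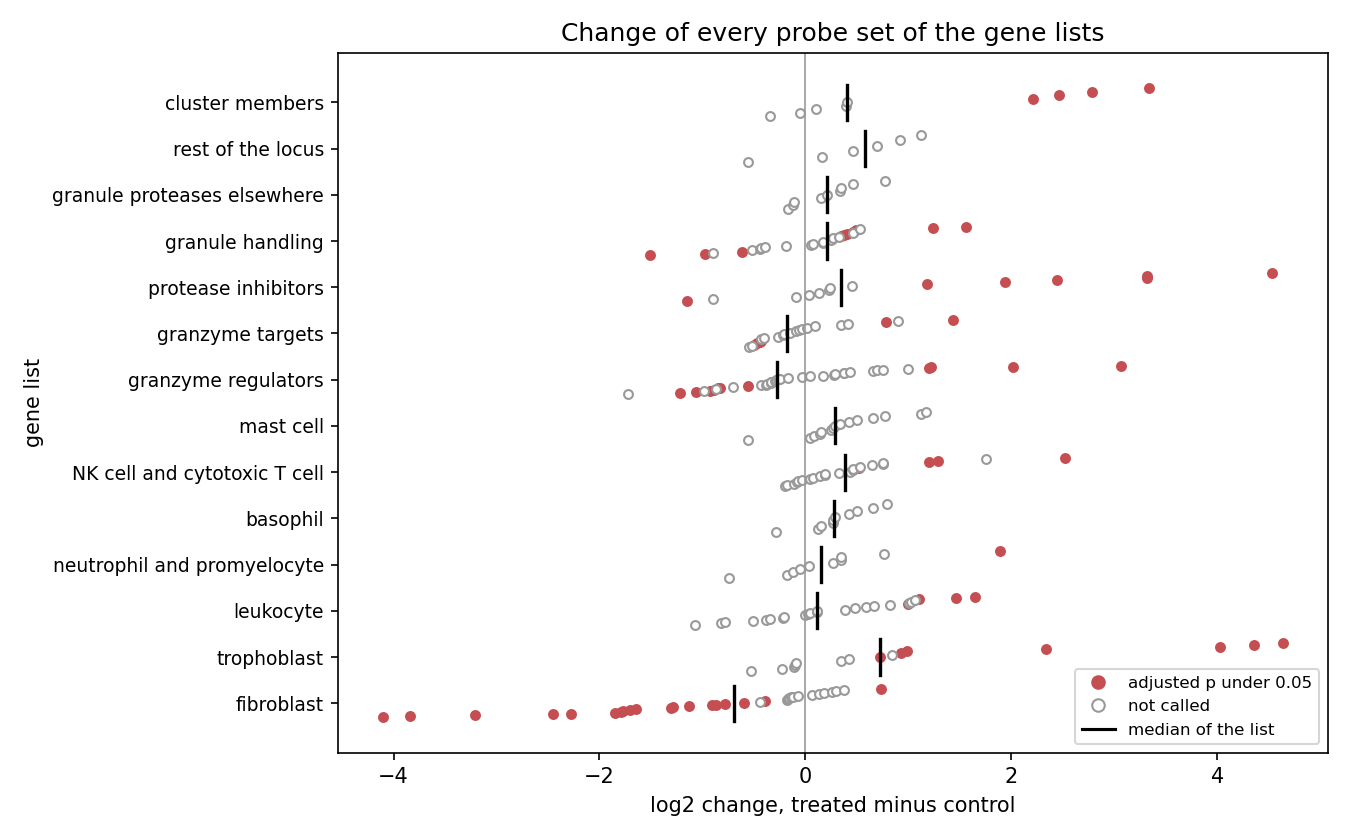
Log2 change (x axis, treated minus control) of every probe set of the members and of each gene list, 1 row per list, with filled red points where the adjusted p was under 0.05 and black bars at the list medians. Member calls reach 2.21 to 3.34, the inhibitor list reaches 4.53 and the trophoblast list 4.64, while 18 of 32 fibroblast probe sets fell.

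Markers of cells that are known to make the members were counted in the same test, in which 9.07% of all probe sets were called higher and 9.80% lower. Of 24 probe sets of 17 NK cell and cytotoxic T cell genes, 4 rose and 0 fell, with a median of 0.38, and the summed signal was 353.8 to 411.6 in the controls and 658.7 to 767.9 in the treated cultures. Nkg7, a granule membrane protein of these cells, rose by 2.52 ± 0.53 (adjusted p = 0.00954), with 7.16, 8.96 and 7.53 in the controls and 148.9, 152.0 and 30.3 in the treated cultures. Treated culture 3, which was low for Nkg7, was not low for Mcpt8, Gzme or Gzmd. Klrd1, an NK receptor chain, rose by 1.28 (adjusted p = 0.0172), Eomes by 1.20 (adjusted p = 0.0301) and Cd8a by 0.52 (adjusted p = 0.024). The Klrd1 call was lost without control replicate 3, treated replicate 2 or treated replicate 3 (adjusted p = 0.0566, 0.0664 and 0.0526), and that of Cd8a without control replicate 2, treated replicate 1 or treated replicate 3 (up to 0.349 with unscaled signals). The Eomes call was lost without any 1 array other than treated replicate 3 (up to 0.0975). Cd3e, Cd3g, Cd7, Cd8b1, Ifng and Tbx21 were below the 40th percentile on all 6 arrays.

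Pan-leukocyte genes had 4 rises and 0 falls in 25 probe sets of 12 genes (7 higher and 4 lower at an unadjusted p under 0.05), with a median of 0.12 and sums of 2093 to 2311 in the controls and 3942 to 4377 in the treated cultures. These sums, like those of the other lists, add linear signals, so bright genes weigh most in them. Cd53, a leukocyte tetraspanin, rose by 1.65 (adjusted p = 0.000772) at one probe set and differed by -0.51 (adjusted p = 0.43) at the other, and the calls of Laptm5 (1.46) and Coro1a (1.11) were each lost in 9 of 12 alternatives, without any 1 control array among them, with adjusted p up to 0.124 and 0.146. Ptprc, which encodes CD45 on all nucleated blood cells, went from 27.0 to 41.5 at its brighter probe set (0.48, adjusted p = 0.325).

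Mast cell markers gave 0 calls in 15 probe sets of 10 genes (limma, adjusted p under 0.05; 4 at an unadjusted p under 0.05), with a median of 0.29 and sums of 354.4 to 463.3 in the controls and 552.0 to 703.3 in the treated cultures. Their smallest p-values were those of Tpsab1 and Cma1, given above, and Kit, the receptor for stem cell factor (1.17, adjusted p = 0.0901). Kit was called without treated replicate 3 (adjusted p = 0.0324). Cpa3, mast cell carboxypeptidase, read 64.2 and 72.2 on average (0.14, adjusted p = 0.794), and Hdc and Mcpt4 were below the 40th percentile on all 6 arrays. Basophil markers also gave 0 calls in 10 probe sets of 7 genes (2 at an unadjusted p under 0.05), with a median of 0.28 and sums of 324.9 to 410.6 and 477.6 to 546.2, and the lowest p was that of Itga2 (0.79, adjusted p = 0.103). Neutrophil and promyelocyte markers had 1 rise in 10 probe sets, S100a8 (1.89, adjusted p = 0.00193), with a median of 0.15 and sums of 434.5 to 573.9 and 467.2 to 604.8. The share called higher over all probe sets was 9.07%. Cd200r3 of the basophil list and Camp and S100a9 of the neutrophil list were below the 40th percentile on all 6 arrays.

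Trophoblast genes, listed because the placenta and its NK cells are a known site of Gzmc to Gzmg, had 7 rises and 0 falls in 15 probe sets of 12 genes, with a median of 0.72. The whole array had 9.07% of probe sets called higher. Prl8a9 and Prl8a6, prolactin family hormones of the placenta, rose by 4.64 ± 0.24 (adjusted p = 4.27e-06) and 4.36 ± 0.25 (adjusted p = 7.6e-06). The homeobox genes Rhox5, Rhox6 and Rhox9 rose by 4.02, 2.34 and 0.99, the last not without treated replicate 2 (adjusted p = 0.058) or treated replicate 3 (0.0598). Psg23 rose by 0.93, and Ctsr, a placental cathepsin that was dim on all arrays, by 0.72, which was not called without any 1 of the 6 arrays (adjusted p up to 0.136). The summed signal was 335.8 to 445.4 in the controls and 1929 to 2355 in the treated cultures, while Tpbpa and Ctsq were below the 40th percentile throughout.

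Fibroblast genes checked the label of the cells. They were bright in both groups, with sums of 54300 to 59800 in the controls and 37160 to 43170 in the treated cultures, and 18 of 32 probe sets fell while 1, S100a4, rose, with a median of -0.69. For comparison, 9.80% of all probe sets were called lower and 9.07% higher. Col3a1, type III collagen, had the smallest p (-4.10 at one probe set, adjusted p = 1.55e-07), followed by Pdgfra (-3.21) and Prrx1 (-1.77). Each value is that of 1 probe set, and other called probe sets of these genes fell less. Across the alternatives another Col3a1 probe set lay at -1.889 to -1.705. Others of Pdgfra lay at -2.466 to -2.126 and at -1.769 to -1.44. In the main fit another Prrx1 probe set changed by -0.598. The part of these marker changes in the signals of Mcpt8, Gzme and Gzmd was not tested.

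The genes whose profile over the 6 arrays was most like that of Gzmd were sought among all genes with a probe set of 1 symbol, as the smallest Euclidean distance between centred log2 profiles. They were Ptgs2 (0.609), Bcl2l15 (0.640), Mageb16 (0.741), Gtsf1 (0.757) and Kcnmb1 (0.782). In all 5, as in Gzmd, control 2 was the highest control, a likeness that the choice by profile favours. Ptgs2, the inducible cyclooxygenase, was bright throughout, at 459.7 ± 207.5 in the controls and 4076 ± 224.9 in the treated cultures. Bcl2l15, a BCL2 family member, went from 2.89 ± 2.03 to 109.7 ± 10.9, close to the course of Gzmd. With 6 arrays in 2 groups, likeness of this kind rests mostly on the difference between the groups.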

How the data were processed

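The members, gene lists and tests were chosen with earlier results of these data known. Total RNA of 6 cultures (3 treated, 3 control) was biotin-labelled and measured on 1 array each. The deposited values are linear signal intensities, 1 per probe set and array, made by the authors with MAS5, per the submitters' processing notes. No MAS5 version, target intensity or detection call is given in the sources used here. Groups and replicate numbers came from the sample titles.

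Each array was scaled to a 2% trimmed mean of 193.2 over probe sets outside the 64 controls, and log2(signal + 9.66) was fitted in limma 3.58.1 under R 4.3.3 (lmFit, then eBayes with trend; group only; two-sided). P-values were adjusted by Benjamini-Hochberg over all 45037 probe sets, with a threshold of 0.05. The procedure was tested on simulated data. The number of arrays limits the precision, and p-values measure the spread between these cultures.

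Names came from the platform annotation (34945 probe sets with 1 symbol, 932 with several, 9160 with none), of which 34741 matched GRCm38.p6 by Entrez identifier. That assembly gave the gene order and the start windows. All members are named with every probe set. Of each list, any gene that passed and the 3 with the smallest p are named (in the fibroblast list those 3 and S100a4 only, and 1 leukocyte gene that passed is not reported here), with the flanking genes that passed and the 5 most alike profiles. Gzmn, Prf1, Ptprc, Cpa3, Serpinb9, the bright Ctsc probe set and the dim markers were added after their values were seen. Alternatives were unscaled or quantile-normalized signals, pseudocounts of 0.01 and 0.2 of the trimmed mean, a filter on dim probe sets, no trend, a replicate block and leaving out each array.

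The labels do not say whether a replicate number marks a shared explant. Same-numbered treated and control arrays deviated from their group means with correlations of 0.10, 0.101 and 0.04. These correlations cannot settle the question, and the numbers were not taken as pairs in the main fit.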

Additional observations from a re-analysis of the deposited data

Results flagged for a closer look

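One probe set outside the members' rule carried a signal above the control level. It is 1421227_at, which the annotation lists for both Gzme and Gzmd, so no single gene can be named from it. It read 16.0, 8.96 and 5.50 in the controls and 276.1, 204.1 and 161.4 in the treated cultures, with means of 10.1 ± 5.33 and 213.9 ± 57.97 (SD, n = 3 each). Its log2 change was 3.50 ± 0.31 (SE), above those of the Gzme probe set and of both Gzmd probe sets. All treated cultures were above all controls, as for the single-symbol probe sets of Gzme and Gzmd.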

How the results depend on the processing

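The 4 member probe sets of Mcpt8, Gzme and Gzmd were called higher in all 13 alternatives, and the other 5 in none of the 12 in which they were tested. The filter on dim probe sets is among these 13. The 4 pass it through their treated arrays, so nothing is read from their calls or their median under it. Among the log2 changes of single member probe sets, 6 moved by more than the spread between replicates, all under another pseudocount and all with the call kept. The member median of 0.41 became 2.62 with the filter, which leaves only the 4 bright probe sets, 0.72 and 0.17 with the smaller and larger pseudocount, and 0.23 to 0.66 when leaving out 1 array (lowest without control replicate 1, highest without control replicate 2). On unscaled signals, 4352 instead of 8499 probe sets were called, 22 instead of 35 in the 6 lists around the members, and 3 instead of 6 flanking genes. The rest of the locus had 1 call with the filter (Cma1) and 0 to 1 when leaving out 1 array (Mcpt1 without treated replicate 1), against 0. With the replicate block, 8757 probe sets were called and the 4 member calls remained, while Kit (adjusted p = 0.0456) and the bright Ctsc probe set (adjusted p = 0.0409) were called and Eomes (adjusted p = 0.0515) was not. Low signal limits Gzmb, Gzmc, Gzmf, Gzmg and Ctsg, whose levels are not separated from background.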
